A study of Mus musculus with 6 samples.

Results

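The major urinary proteins are represented by 10 genes, Mup1, Mup2, Mup3, Mup7, Mup11, Mup12, Mup17, Mup18, Mup19 and Mup20. They were chosen by gene symbol from the 16426 genes of one deposited table of mouse liver RNA sequencing, and all 10 have a row there. The labels describe 3 male C57/BL mice given 20% carbon tetrachloride (CCl4), a solvent that injures the liver, for 10 weeks, and 3 male C57/BL mice given saline as a normal group. Ages are not stated in the labels, and another group of the design, given CCl4 and the flavonoid didymin, was not analysed here. The table compares 3 libraries called ly_A with 3 called ly_B, and these names match no label of any sample. No set could therefore be tied to the CCl4 or the normal group, and no difference below is stated as an effect of CCl4. The columns of single libraries, which are among 18 further columns, were left unused for the same reason. No level, spread between animals or sum over the family is therefore given.

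Major urinary proteins are small lipocalins, barrel-shaped carriers that hepatocytes secrete into blood and that pass through the kidney into urine. There they bind volatile pheromones and release them slowly, and some act as scent signals themselves. In mouse liver their transcription is higher in males and depends on pulses of growth hormone, which act through the transcription factor STAT5B, and also on androgens, thyroid hormone and glucocorticoids. The genes lie side by side on chromosome 4, where a central array of nearly identical copies is flanked by more divergent ones.

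Among the 9 tested members, the 7 nearly identical copies had the larger log2 fold changes and the divergent copies Mup20 and Mup3 the smaller ones by the authors' deposited table. Outside the list, the divergent Mup21 stood at log2 3.58, above Mup1 at 3.20, and the divergent Mup6 at 0.99, by the authors' deposited table. Copies are named here by their present symbols, and which gene each row counted is not known. At an adjusted p under 0.05, 8 of the 9 tested Mup genes were higher in ly_A and 0 were lower by the authors' deposited table, and all 9 had a log2 fold change above 0. Of all 14114 genes tested, 18.1% were higher in ly_A and 17.7% were lower by the authors' deposited table. With a 2-fold difference as well, 8 Mup genes were higher, against 10.9% of all tested genes higher and 7.85% lower by the authors' deposited table. At an adjusted p under 0.01 it was 7 Mup genes, against 12.3% of all tested genes higher and 12.7% lower. Adjusted over all 16426 rows it was 8, against 15.0% of all rows higher and 14.6% lower. The genes were listed with these values already known, so the counts describe the list and are no test of it. The median log2 fold change of the 9 was 4.53 and that of all tested genes was 0.07 by the authors' deposited table. The name of the comparison puts ly_A before ly_B, and ly_A is read as the numerator, so a positive value means higher in ly_A. In bulk liver, fewer hepatocytes and less Mup RNA per hepatocyte cannot be told apart.

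**Figure D1:**
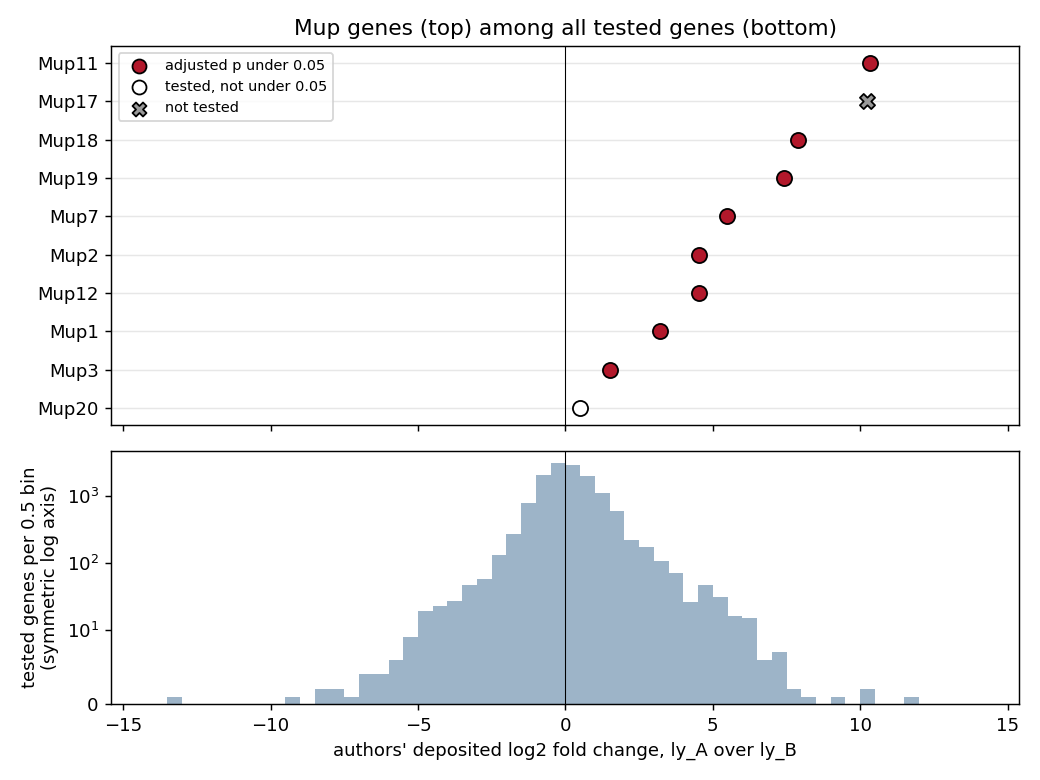
The upper panel plots the authors' deposited log2 fold change, ly_A over ly_B, of each of the 10 Mup genes, and the lower panel counts all 14114 tested genes in bins of the same axis (symmetric log count axis). The values of all 9 tested Mup genes lie above 0, 3 of them (Mup11, Mup18 and Mup19) beyond a log2 value of 7, where 14 tested genes lie in all; no error bars are drawn because the library columns were not used.

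The highest values belonged to genes of the central array. Mup11 was 1288-fold higher in ly_A by the authors' deposited table (log2 10.33, adjusted p = 2.74e-34). It ranked 3 by log2 fold change and 15 by p among the 14114 tested genes. Mup18 was 238-fold higher in ly_A (log2 7.90, adjusted p = 9.12e-08) and had rank 6 by the authors' deposited table. For Mup19 the fold was 171 (log2 7.42, adjusted p = 1.59e-07), at rank 9 by the authors' deposited table. Folds of this size are fitted values. The reads behind ly_B were not examined, so how near these folds are to ratios of measured levels is not known.

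Mup17, another gene of the central array, carried a log2 value of 10.23 with a p of exactly 1 and an adjusted p of exactly 1 by the authors' deposited table. It is 1 of 2312 genes whose adjusted p is 1 and which were treated as not tested. Among these 2312 genes of the authors' deposited table, 122 have a p of exactly 1 and 43 have a log2 value with a size over 10. No direction is stated for Mup17.

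Mup7, Mup2, Mup12 and Mup1 formed a middle range. Mup7 was 44.6-fold higher in ly_A by the authors' deposited table (log2 5.48, adjusted p = 0.000721). Mup2 and Mup12 had almost the same log2 fold change, 4.53 and 4.52, by the authors' deposited table. Their adjusted p-values were far apart, 0.000266 for Mup2 and 3.55e-11 for Mup12. Mup1, whose protein has been described in mice as a circulating regulator of glucose and lipid metabolism, was 9.19-fold higher in ly_A by the authors' deposited table (log2 3.20, adjusted p = 0.0218). Mup1 had the largest adjusted p of the 8 genes that passed, and its call ended at an adjusted p under 0.01.

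The smallest differences were those of Mup3 and Mup20. Mup3, a divergent gene at the edge of the cluster, was 2.89-fold higher in ly_A by the authors' deposited table (log2 1.53, adjusted p = 2.00e-09). Its log2 fold change ranked 1284 of the tested genes and its p ranked 385, ahead of Mup18, Mup19, Mup2, Mup7 and Mup1. Mup20 encodes darcin, the male urinary pheromone that attracts females. It stood at log2 0.50 with an adjusted p of 0.767 by the authors' deposited table and did not pass. A p that misses the threshold does not show that Mup20 was equal in the sets.

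The table holds 3 further Mup genes outside the list. Mup21 was 11.9-fold higher in ly_A by the authors' deposited table (log2 3.58, adjusted p = 0.0135). Mup8 stood at log2 3.96 with an adjusted p of 0.0686, and Mup6 at log2 0.99 with an adjusted p of 0.632, by the authors' deposited table. With them, 9 of 12 tested Mup genes were higher in ly_A and 0 were lower, against 18.1% and 17.7% of all tested genes. Their median log2 fold change was 4.24 by the authors' deposited table.

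Neighbours on the chromosome did not always have like values. RefSeq (GRCm38.p6) places 22 coding Mup genes in one run on chromosome 4, of which 13 have a row. Mup11 and Mup12 are adjacent, at log2 10.33 and 4.52 by the authors' deposited table. Mup17, Mup18 and Mup19 follow each other, and the tested pair Mup18 and Mup19 stood at log2 7.90 and 7.42 by the authors' deposited table. At the far end, Mup20, Mup3 and Mup21 follow each other with log2 0.50, 1.53 and 3.58 by the authors' deposited table. Coordinates are left out for the genes, since the processing notes name another build, mm9.

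**Figure D2:**
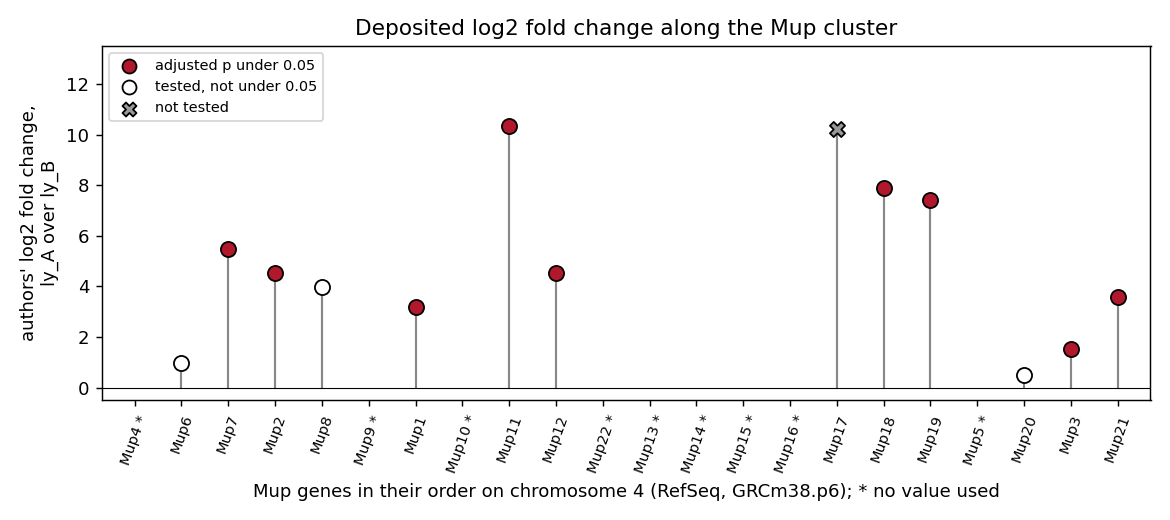
The authors' deposited log2 fold change, ly_A over ly_B, is plotted for the Mup genes in their RefSeq order on chromosome 4, evenly spaced and not to genomic scale, with an asterisk for a gene without a value here. High values stand in the middle and right of the array (Mup11, Mup18, Mup19), and of the divergent genes Mup6, Mup20 and Mup3 are below a log2 value of 2, while Mup21 stands at 3.58.

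How far a value belongs to 1 gene depends on sequence. In the GENCODE M21 transcripts, the 8 members other than Mup3 and Mup20 were 97.95% to 99.57% identical to each other over the closest pair of coding transcripts (28 pairs). Against Mup3 or Mup20 these 8 were 84.66% to 90.19% identical, and Mup3 and Mup20 shared 88.0% with each other. The 7 tested genes of the near-identical group spanned log2 3.20 to 10.33 by the authors' deposited table. Mup3 and Mup20 lay below that span. Mup21, no member, was also divergent, at most 82.7% identical to another Mup gene, and its log2 value of 3.58 by the authors' deposited table lies within it.

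Each coding transcript was also read in windows of 100 bases, a length chosen here because the labels state no read length. For Mup19, 0% of 965 windows were absent from every other Mup gene or pseudogene, so no such window can be assigned to Mup19 alone. Mup2 had 2.30% of its windows to itself, Mup18 12.9%, Mup11 21.8%, Mup12 22.5% and Mup7 23.9%. The shares were 40.6% for Mup17 and 44.3% for Mup1, against 61.2% for Mup20 and 97.8% for Mup3. Windows were pooled over each gene's coding transcripts, 4 for Mup1, 3 for Mup7, 2 for Mup11 and 1 for Mup12, Mup17 and Mup18. Shares therefore also depend on the number of annotated transcripts, and that of Mup1 is not directly comparable with the others. A read from a shared window fits more than 1 Mup gene, and how such reads were counted is not described in the labels. By these transcripts Mup3 is the member whose sequence is almost wholly its own, and its row passed with the smallest fold of the 8. Whether that row was counted on these transcripts is not known, since Mup3 is also listed as a name of Mup7. The part of shared reads in the differences between copies was not tested.

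**Figure D3:**
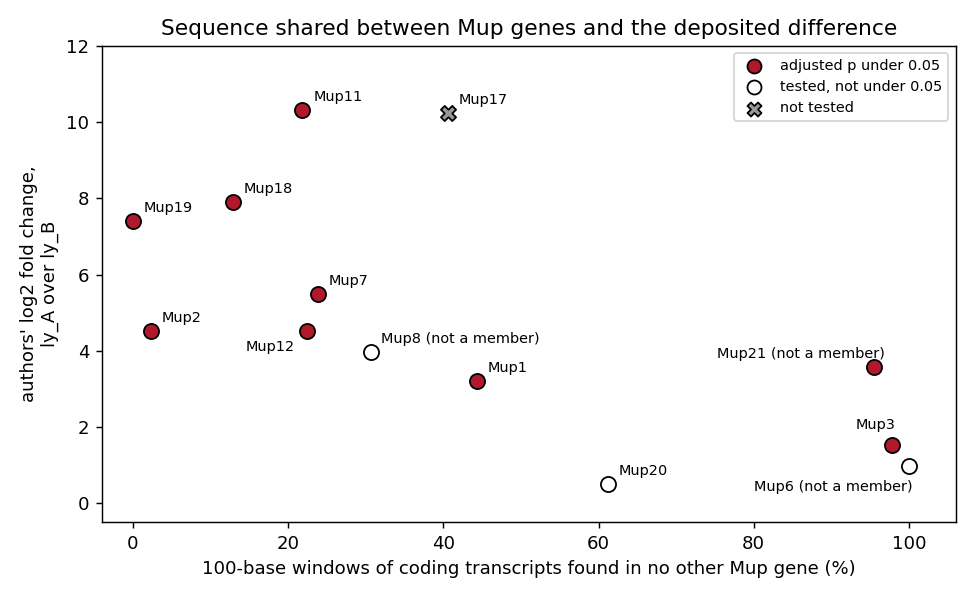
For each Mup gene of the table, the horizontal axis gives the percentage of 100-base windows of its coding transcripts found in no other Mup gene or pseudogene, and the vertical axis the authors' deposited log2 fold change, ly_A over ly_B. Mup19 (0%) and Mup18 (12.9%) combine little sequence of their own with log2 values over 7, and Mup3 (97.8%) stands at 1.53. Mup2, with 2.30%, stands at 4.53. Outside the list, Mup21 (95.5%) stands at 3.58, Mup8 (30.6%) at 3.96 and Mup6 (100%) at 0.99.

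The symbols themselves also limit what single values mean. RefSeq lists the symbols of 8 of the 10 members as a synonym of at least 1 other Mup gene. Mup18, for example, is also listed as a name of Mup2, Mup11 and Mup5. Mup1 is listed for Mup4 and Mup12, and Mup3 for Mup7. Mup19 and Mup20 are not listed as a synonym of another Mup gene. Which of these meanings the annotation behind the table used is not known from the labels or the header.

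Promoters of the genes with the largest differences and of Mup3 are shown because the near-identical copies had the large values and Mup3 a small one. The RefSeq promoter table (GRCm38.p6, minus strand for all 4) covers 250 bases before to 50 after a gene's start, at chr4:60662346-60662645 for Mup11, chr4:61674045-61674344 for Mup18, chr4:61782175-61782474 for Mup19 and chr4:62087268-62087567 for Mup3. Capitals mark TATATAA, which resembles the core promoter box named after TATA, and in Mup11 also TTC and GAA with 4 bases between them.
Mup11: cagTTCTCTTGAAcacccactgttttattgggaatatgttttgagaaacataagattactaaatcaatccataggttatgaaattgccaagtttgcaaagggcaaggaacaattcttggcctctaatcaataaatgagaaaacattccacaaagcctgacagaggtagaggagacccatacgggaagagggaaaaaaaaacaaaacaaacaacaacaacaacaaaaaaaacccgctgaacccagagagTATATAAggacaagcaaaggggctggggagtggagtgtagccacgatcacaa
Mup18: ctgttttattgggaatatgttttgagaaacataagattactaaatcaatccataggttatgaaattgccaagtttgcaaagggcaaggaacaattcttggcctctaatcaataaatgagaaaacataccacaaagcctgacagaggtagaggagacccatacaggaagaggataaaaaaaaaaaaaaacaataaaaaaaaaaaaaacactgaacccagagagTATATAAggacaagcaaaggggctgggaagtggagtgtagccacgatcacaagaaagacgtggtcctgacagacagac
Mup19: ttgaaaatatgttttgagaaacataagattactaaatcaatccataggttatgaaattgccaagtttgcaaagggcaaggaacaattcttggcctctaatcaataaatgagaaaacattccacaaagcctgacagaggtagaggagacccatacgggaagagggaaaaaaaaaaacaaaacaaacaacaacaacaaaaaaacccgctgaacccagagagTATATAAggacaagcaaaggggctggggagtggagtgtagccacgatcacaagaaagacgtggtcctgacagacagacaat
Mup3: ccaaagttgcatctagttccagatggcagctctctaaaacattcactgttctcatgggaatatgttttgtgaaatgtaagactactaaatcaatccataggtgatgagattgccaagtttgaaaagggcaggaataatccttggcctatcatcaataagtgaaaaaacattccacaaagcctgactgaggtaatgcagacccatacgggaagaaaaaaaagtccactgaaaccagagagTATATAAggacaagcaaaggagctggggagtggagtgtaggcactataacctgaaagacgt

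Of the 10 members, 7 have an entry in that table (Mup2, Mup3, Mup7, Mup11, Mup17, Mup18 and Mup19), and Mup1, Mup12 and Mup20 do not. Promoters of the 6 entries other than Mup3 were 93.95% to 98.92% identical over their best local alignment, and each was 76.76% to 85.05% identical to that of Mup3. TATATAA was found in 6 of the 7 windows and in 3.24% of the 32851 promoters of the table. Its first base lay between 2 and 31 bases before the annotated start. In Mup11 that distance was 2, so there the motif runs across the annotated start. The window of Mup7, whose annotated start lies further upstream in the shared sequence, holds no TATATAA. The motif was searched on both strands, and it was chosen after these sequences were read. TATAAA, the motif chosen earlier, was in 0 of the 7 windows and in 13.6% of all promoters. TTCNNNGAA, the consensus of STAT5 sites, was in 0 of the 7 windows and in 8.30% of all promoters on either strand. With 4 bases between TTC and GAA, a match was in the windows of Mup7 and Mup11 and in 6.95% of all promoters. A match is a description of letters, and its absence says only that these letters are not in this window.

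Of 15 tested male-biased liver genes other than Mup, 11 were higher in ly_A and 1 was lower, against 18.1% and 17.7% of all tested genes, with a median log2 fold change of 2.73 by the authors' deposited table. The other 3, C6 (log2 0.93), Ugt2b38 (1.66) and Serpina12 (2.15), did not pass by the authors' deposited table. Selenbp2, a selenium-binding protein, was 15.8-fold higher in ly_A by the authors' deposited table (log2 3.98, adjusted p = 0.000781). Cyp4a12a, a fatty acid hydroxylase induced by androgen, was 6.75-fold higher in ly_A by the authors' deposited table (adjusted p = 0.0143). Egfr, the epidermal growth factor receptor, was the gene that was lower in ly_A (log2 -0.62, adjusted p = 0.0213 by the authors' deposited table). The steroid dehydrogenase gene Hsd3b5 (log2 7.81) and the fatty acid elongase gene Elovl3 (log2 7.47) were higher in ly_A, close to Mup18 and Mup19, by the authors' deposited table. Slco1a1, an organic anion transporter, was 24.3-fold higher in ly_A by the authors' deposited table. The other 6 that were higher in ly_A were Cyp4a12b (log2 2.85), the oxysterol hydroxylase gene Cyp7b1 (2.81), Serpina1e (2.73), Cyp2u1 (1.82), Nudt7 (1.27) and Cyp2d9 (0.97), with adjusted p-values up to 0.0398 by the authors' deposited table. Results of this table for these genes were already known, so the list is not independent evidence.

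Of 24 regulators of Mup transcription and genes of growth hormone signalling, 5 were higher in ly_A and 6 were lower by the authors' deposited table, against 18.1% and 17.7% of all tested genes. The list's median log2 fold change was -0.10 by the authors' deposited table. The growth hormone receptor gene Ghr (log2 0.91, adjusted p = 2.89e-06) and Stat5b (log2 0.79, adjusted p = 0.00014) were higher in ly_A by the authors' deposited table. Igfals, which encodes a carrier of IGF1 in blood, was higher in ly_A (log2 0.97) while Igf1 did not pass (log2 -0.23, adjusted p = 0.392) by the authors' deposited table. Cish (log2 -1.97) and Socs2 (log2 -0.86), which encode feedback inhibitors of cytokine signalling, were lower in ly_A by the authors' deposited table, with 0.00531 as the larger adjusted p. Nr3c1, the glucocorticoid receptor gene, was lower in ly_A (log2 -0.91, adjusted p = 3.00e-07) by the authors' deposited table. Bcl6, a repressor that competes with STAT5 at its sites, was 4.94-fold higher in ly_A by the authors' deposited table (adjusted p = 1.03e-08). Of the transcription factors of hepatocytes, Cebpb was higher in ly_A (log2 1.69, adjusted p = 1.37e-15) and Onecut1 was lower (log2 -4.05, adjusted p = 3.35e-34) by the authors' deposited table. Zhx2, a transcription factor that controls Mup genes in mouse liver, did not pass (log2 -0.57, adjusted p = 0.172 by the authors' deposited table). Whether any regulator bears on the Mup values was not tested.

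Among 12 tested lipocalins other than Mup, 5 genes were higher in ly_A and 1 was lower, against 18.1% and 17.7% of all tested genes, with a median log2 fold change of 0.62 by the authors' deposited table. Orm3, an orosomucoid, stood at log2 4.03 and Ptgds, a prostaglandin D synthase, at 3.93 by the authors' deposited table, both within the Mup range. Lcn12 (log2 2.91), C8g of the complement system (1.23) and the retinol carrier gene Rbp4 (0.80) were also higher in ly_A, with adjusted p-values up to 0.0483 by the authors' deposited table. That largest value is Lcn12's, and its call ended at an adjusted p under 0.01 and with adjustment over all rows. Lcn2, an iron-siderophore carrier induced in injury, was 6.86-fold lower in ly_A by the authors' deposited table (log2 -2.78). Among 22 abundant secreted hepatocyte proteins, 11 were higher in ly_A and 2 were lower, against 18.1% and 17.7% of all tested genes, with a median log2 fold change of 0.69 by the authors' deposited table. The largest of these was Serpina1e, which is also in the male-biased list, at log2 2.73 by the authors' deposited table. All 8 Mup genes that passed except Mup3 exceeded it.

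**Figure D4:**
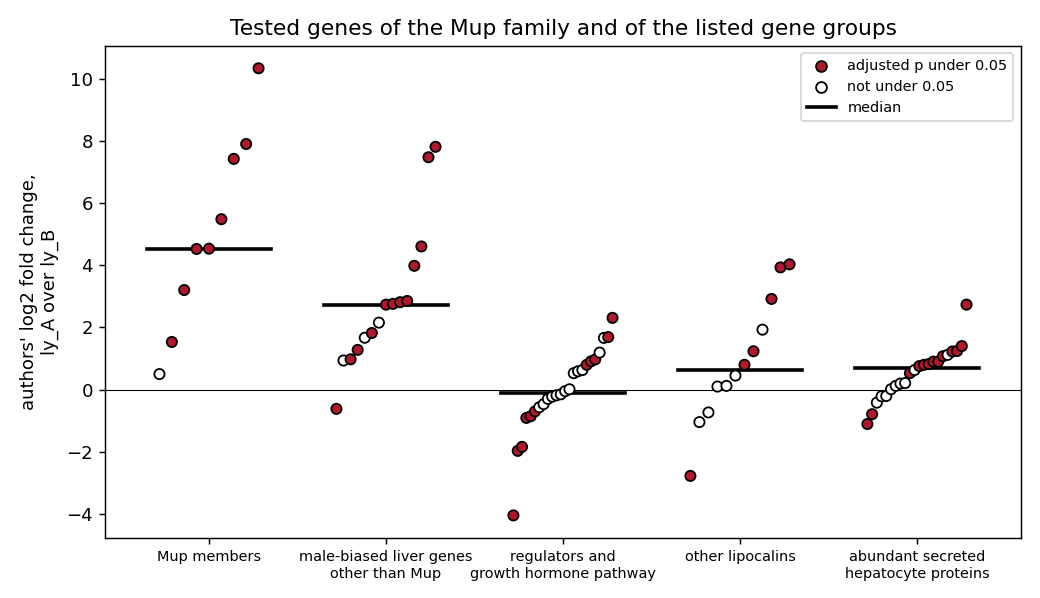
Each point is the authors' deposited log2 fold change, ly_A over ly_B, of 1 tested gene of the Mup members or of a listed group, and the bar is the median of the group. The medians are 4.53 for the Mup members, 2.73 for other male-biased genes, -0.10 for regulators, 0.62 for other lipocalins and 0.69 for secreted hepatocyte proteins.

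The marker lists hold 2 to 6 genes each, and their counts stand beside 18.1% of all tested genes higher in ly_A and 17.7% lower. Of 6 hepatocyte markers, 2 were higher in ly_A (Ttr and Apoa1) and 1 was lower (Apob), while Alb stood at log2 0.19 and did not pass (adjusted p = 0.565) by the authors' deposited table. By the authors' deposited table, 3 of 4 sinusoidal endothelial, 2 of 4 macrophage, 2 of 3 T and NK cell and 1 of 2 B cell markers were higher in ly_A. Of 4 cholangiocyte markers 1 was lower in ly_A, and 0 of 4 tested stellate cell and 0 of 2 neutrophil markers passed by the authors' deposited table. Summed marker levels per library were not used here, and the part of cell composition in the Mup values was not tested.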

How the data were processed

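Liver RNA of 6 male mice was sequenced, from libraries made with a NEBNext kit per the labels' protocols. DESeq2, with no version, and the build mm9 are named per the submitters' processing notes. For the aligner, counter, annotation and read length, no method is named by the labels. The deposited table gives, per the file headers, a log2 fold change, a p-value and an adjusted p-value of the authors' comparison for each gene symbol. Another 18 columns, among them those of single libraries whose names match no label, were not used. Depth per library was therefore not examined, and no interval is given. In the first lines of the table, seen on opening, a negative log2 value stood beside larger entries of ly_B, which bears on the sign alone.

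Of 16426 rows, 2312 had an adjusted p of 1. For the remaining 14114 a Benjamini-Hochberg adjustment gave the deposited adjusted p to within a relative difference of 9.47e-13, so those rows were taken as tested. Genes were called at an adjusted p under 0.05. The adjustment was tested on simulated p-values, and the window and identity measures on short made-up sequences. The members, the 4 gene lists and the 8 marker lists were chosen with earlier results of these data known. Named genes were all Mup genes, members of the 4 lists, hepatocyte markers, and the 5 other called genes nearest the Mup median. Values of some listed regulators are not reported here. Transcripts of GENCODE M21 were aligned end to end with edlib 1.3.9, and identity is the share of aligned positions without an edit. Promoters were aligned locally with Biopython 1.88. Tables and plots used Python 3.11.15, pandas 2.3.3, NumPy 2.4.6 and matplotlib 3.10.9. The alternatives were stricter calls, adjustment over all rows, and other windows and motifs.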

Additional observations from a re-analysis of the deposited data

How the results depend on the processing

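Of the Mup calls, that of Mup1 depended on the threshold. The count of Mup genes higher in ly_A was 8 with the 2-fold requirement and with adjustment over all rows (Mup1 then at an adjusted p of 0.0254), and 7 at an adjusted p under 0.01, which ended the call of Mup1. None was lower in ly_A under these 3 alternatives. Of all tested genes, 10.9% were higher and 7.85% lower with the 2-fold requirement. At an adjusted p under 0.01 these shares were 12.3% and 12.7%. With adjustment over all rows, 15.0% of the rows were higher and 14.6% lower. The median of all tested genes, 0.07, is smaller than every tested Mup value, so subtracting it could turn no sign and tests nothing. The median log2 fold change of the family, 4.53, was 5.0 over the 8 called genes, 5.48 over the 7 tested genes at least 95% identical to another Mup transcript, and 4.24 over all tested Mup rows. The median share of windows a member has to itself was 23.2% with 100 bases, 13.96% with 50 and 31.7% with 150. With the 2-fold requirement, 2 regulators were higher and 3 lower in ly_A, and 5 secreted proteins were higher and 1 lower, against 10.9% of all tested genes higher and 7.85% lower. Of the lipocalins, 4 in place of 5 were higher in ly_A and 1 was lower under each of the 3 alternatives, against the shares given above. Lcn12 lost its call at an adjusted p under 0.01 and with adjustment over all rows, and Rbp4 with the 2-fold requirement. At an adjusted p under 0.01, 7 male-biased genes were higher and 0 lower in ly_A, against 12.3% and 12.7% of all tested genes, and with the 2-fold requirement 10 were higher and 0 lower. The motif TATATAA in place of TATAAA moved the matches to 6 promoters, and a spacer of 4 bases moved those of the STAT5 motif to 2.

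No paired analysis was possible because the library columns match no labelled sample. For the same reason count models, filters and leaving out each replicate were not run, and protein identity was not run because no protein sequences were used here. The family sum was not computed.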

Other observations

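Outside the family, the 5 called genes whose log2 fold change was nearest the Mup median of 4.53 were Serpinb1c (4.52), Rgs16 (4.52), G0s2 (4.55), Chrna4 (4.48) and Adgrg2 (4.58) by the authors' deposited table. G0s2 encodes an inhibitor of the triglyceride lipase ATGL, and Rgs16 a regulator of G protein signalling whose liver transcript follows feeding. Likeness here is the distance in a single log2 fold change, the only value per gene that was used, so it does not show that these genes vary with the Mup genes from animal to animal.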
